A study of Mus musculus with 2 samples.

Results

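A set of 10 chemokine genes that an islet under immune attack can make was followed across the cell classes of NOD mouse islets: Cxcl1, Cxcl2, Ccl2, Ccl3, Ccl4, Ccl5, Cxcl9, Cxcl10, Cxcl13 and Cxcl16. They were taken by gene symbol, 10 of the 32285 genes in the count matrices and 10 of the 46 genes with a chemokine symbol. All 10 were detected, and they held 95.4% of the chemokine transcripts of the library from mice fed HAMS and 94.8% of those from mice fed HAMSAB. NOD is an inbred mouse strain whose islets are infiltrated by immune cells, which destroy the insulin-producing beta cells. Both groups were NOD mice, 5 weeks old when put on their diet and kept on it for 5 weeks. HAMS stands in the field for high-amylose maize starch. HAMSAB is its acetylated and butyrylated form, from which gut bacteria free acetate and butyrate.

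Chemokines are small secreted proteins that draw cells carrying the matching receptor along a gradient. CXC chemokines such as CXCL1 and CXCL2 act on CXCR2 of neutrophils, and the interferon-induced CXCL9 and CXCL10 act on CXCR3 of activated T cells. CC chemokines act on monocytes, macrophages and T cells through receptors such as CCR1 and CCR2, while CXCL13 draws CXCR5-bearing B cells and CXCL16 draws CXCR6-bearing T cells. In the NOD islet, chemokines are known to come from both the infiltrating leukocytes and the cells of the tissue itself.

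Each diet had 1 droplet library of pancreatic islet cells, in which a unique molecular identifier (UMI) marks each captured transcript. After filtering, HAMS had 4185 cells (median 704 UMIs) and HAMSAB 4628 (median 705), and both libraries shared 6 barcodes. Levels are given as UMIs summed over the cells of a class scaled to the UMI total of that class, in counts per 1000000 (CPM). With 1 library per diet no test between diets exists: the 95% intervals cover counting error alone, and no difference has a replicate check. Classes were drawn without the chemokine genes and named from markers, and 2 clusters stayed unnamed. Cluster 3, led by Ifitm1, Il1r2, S100a4 and Pak1, scored highest for dendritic cell markers, but none of its leading 10 genes was one. The doublet caller marked 0.0454% of cells, too few to have worked, so doublets were kept. Class shares differed between the libraries: T-like cells made up 7.55% and 15.1% (HAMS and HAMSAB), ductal-like cells 1.79% and 4.0%, macrophage-like cells 6.91% and 8.62%, and beta-like cells 32.6% and 15.9%.

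The 250 bases before the start of 4 members are shown here because their transcripts divide by cell class in the values that follow. Capitals mark matches to an NF-kB motif (GGGANNNNCC) or an interferon response motif (GAAANNGAAA), searched on both strands in promoters of 300 bases from RefSeq on build GRCm38.p6. Sequences run 5′ to 3′ on the strand of the gene.
Cxcl1, chr5:90890995-90891244, + strand: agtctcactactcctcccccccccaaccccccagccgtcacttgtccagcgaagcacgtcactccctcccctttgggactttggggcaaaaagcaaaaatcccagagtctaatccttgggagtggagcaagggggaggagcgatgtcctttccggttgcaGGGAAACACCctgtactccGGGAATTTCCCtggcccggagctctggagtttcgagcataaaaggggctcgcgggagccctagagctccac
Cxcl2, chr5:90903649-90903898, + strand: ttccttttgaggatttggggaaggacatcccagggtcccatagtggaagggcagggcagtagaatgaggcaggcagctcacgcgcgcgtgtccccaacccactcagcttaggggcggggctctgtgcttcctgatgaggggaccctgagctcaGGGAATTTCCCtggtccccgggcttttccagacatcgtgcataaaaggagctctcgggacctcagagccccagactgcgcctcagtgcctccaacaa
Cxcl9, chr5:92328080-92328329, - strand: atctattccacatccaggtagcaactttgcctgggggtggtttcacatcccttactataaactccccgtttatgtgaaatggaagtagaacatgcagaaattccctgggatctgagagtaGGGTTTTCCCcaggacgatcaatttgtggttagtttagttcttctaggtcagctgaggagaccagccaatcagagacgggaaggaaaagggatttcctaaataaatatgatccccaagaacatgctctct
Cxcl10, chr5:92348890-92349139, - strand: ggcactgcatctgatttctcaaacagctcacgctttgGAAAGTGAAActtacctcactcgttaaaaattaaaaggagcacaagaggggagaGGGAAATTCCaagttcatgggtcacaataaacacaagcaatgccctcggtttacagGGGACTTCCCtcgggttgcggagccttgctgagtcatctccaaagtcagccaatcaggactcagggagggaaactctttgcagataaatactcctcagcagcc
The NF-kB match 71 bases before the Cxcl1 start and the one 97 bases before the Cxcl2 start each overlap a match on the other strand, 1 base on, and share their 11 letters. Cxcl1 has a further match 90 bases before its start. Cxcl10 carries NF-kB matches 159 and 103 bases before its start, the second on both strands, and is the only one of the 6 members with a promoter in the table that holds the interferon response motif, at 213 bases. The 1 match of Cxcl9 lies on the opposite strand, 130 bases before the start. Among all 32851 promoters, 20.7% hold the NF-kB motif and 3.44% the interferon response motif. A STAT motif (TTCNNNGAA), which 8.30% of promoters hold, has no match in these 6. Cxcl13 holds 1 NF-kB match, 63 bases before its start, and Ccl3 holds none. Promoters of Ccl2, Ccl4, Ccl5 and Cxcl16 are not in the table used. These matches are letters in a window, not measured binding, and a link between them and the cell classes was not tested.

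The genes lie in a few clusters of the genome (GENCODE M21, build GRCm38). Cxcl1 (chr5:90891241-90893115) and Cxcl2 (chr5:90903871-90905938) are neighbours on the + strand, Cxcl9 (chr5:92321347-92328079) and Cxcl10 (chr5:92346638-92348889) are neighbours on the - strand, and Cxcl13 (chr5:95956951-95961068) lies on the same chromosome. Ccl2 (chr11:82035571-82037453), Ccl5 (chr11:83525778-83530518), Ccl3 (chr11:83647844-83649355), Ccl4 (chr11:83662584-83664683) and Cxcl16 (chr11:70453983-70459984) lie on chromosome 11. Ccl2, Cxcl10 and Cxcl16 each overlap 1 gene on the other strand (Gm17268, Art3 and Zmynd15), and the strand setting of the counting is not given in the sources used here, so reads of the overlapped parts are uncertain for these 3. How reads that match both of the similar genes Cxcl1 and Cxcl2 were counted is not given either.

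Over all cells, the neutrophil-attracting Cxcl1 and Cxcl2 and the monocyte-attracting Ccl2 were at least 2-fold higher in the HAMSAB library, and the B-cell-attracting Cxcl13 was at least 2-fold lower. Cxcl1 stood at 28.3 CPM in HAMS and 136.9 in HAMSAB (log2 ratio 2.27, interval 1.96 to 2.60), and Cxcl2 at 183 and 387 (1.08, 0.95 to 1.21). Ccl2 stood at 9.34 and 30.8 CPM (1.72, 1.16 to 2.32). Cxcl13 stood at 41.9 and 17.4 CPM (-1.27, -1.70 to -0.85). Thus 3 of the 10 members were past 2-fold higher, beside 3.07% of all 9760 genes with at least 50 UMIs, and 1 was past 2-fold lower, beside 3.3%. Ccl4, a CC chemokine of macrophages, went from 13.6 to 27.1 CPM (1.0, 0.50 to 1.52), just short of 2-fold, with log2 ratios of 0.50 in cells with 500 or more genes and 2.18 with cells thinned to 500 UMIs, and Ccl3, which acts on CCR1, from 9.62 to 17.8 (0.89, 0.28 to 1.52). Cxcl9 was 295 and 365 CPM (0.31, 0.19 to 0.42). The remaining 3 had intervals that include 0: Ccl5 at 81.5 and 81.6 CPM (a ratio of 0.00, or -0.66 with at least 500 genes per cell), Cxcl10 at 187 and 202, and Cxcl16 at 278 and 287.

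**Figure D1:**
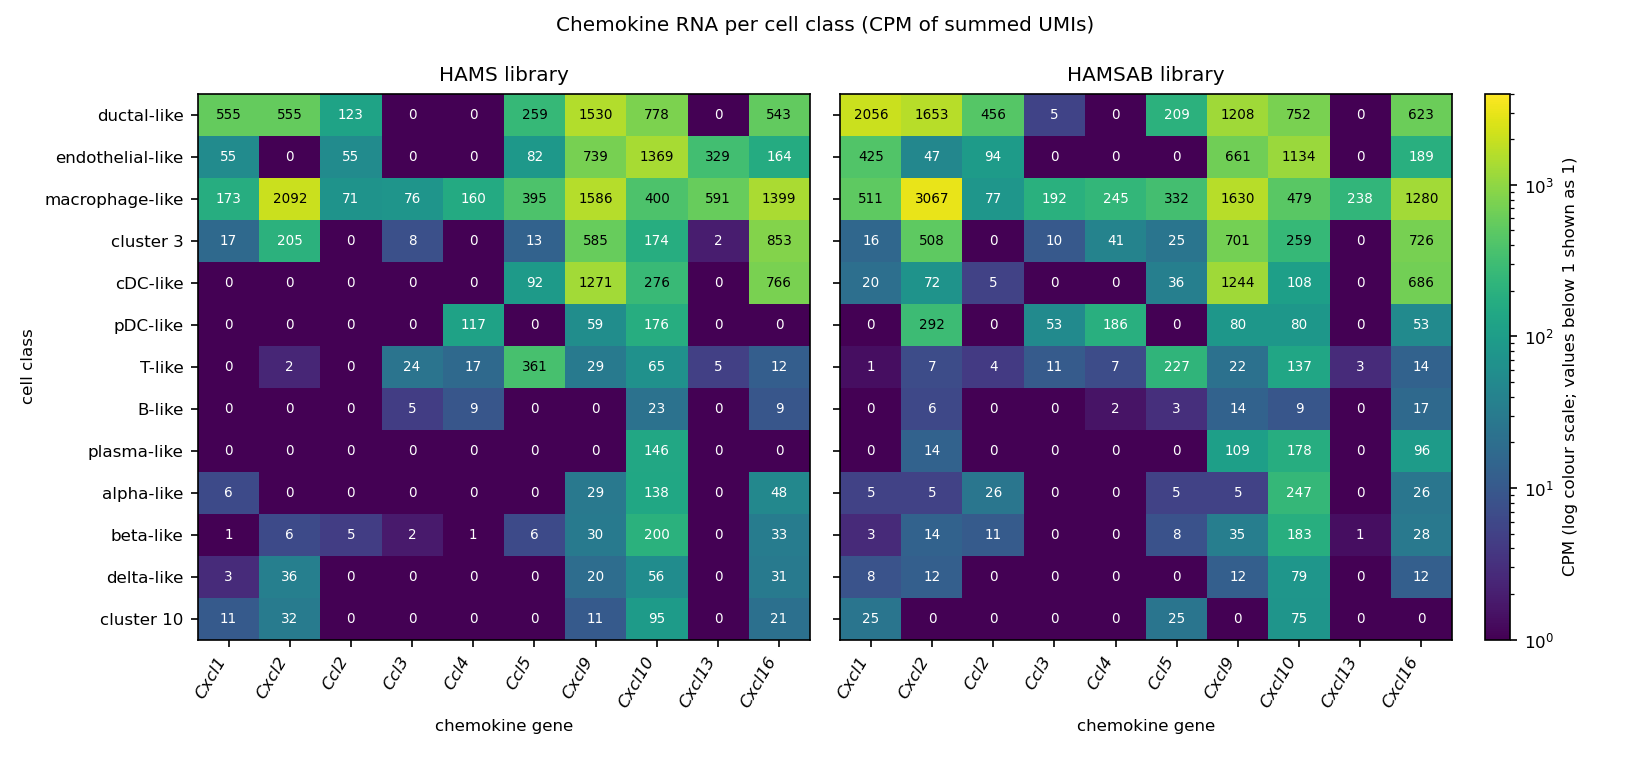
Level of each chemokine gene (columns, CPM of summed UMIs, log colour scale) in each cell class (rows) of the HAMS library (left) and the HAMSAB library (right). Cxcl1 and Ccl2 are highest in ductal-like cells, Cxcl2, Ccl3, Ccl4 and Cxcl16 in macrophage-like cells, and Cxcl10 in endothelial-like cells, in both libraries. These are point values, and some counting intervals overlap, such as those of Cxcl10 in endothelial-like and ductal-like cells of HAMSAB.

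Since the libraries differ in their class shares, the library ratio was also computed with each class held at its HAMS level and only the mix of classes changed. The mix alone gave Cxcl1 0.55 and Cxcl2 0.20 on the log2 scale, and the levels within classes gave 1.73 and 0.88. Ccl2 had 0.33 from the mix and 1.40 from the levels. For Cxcl9 the mix alone gave 0.28 and the levels 0.03, so that its library ratio was close to that of the class mix. For Ccl5, a chemokine of T cells and macrophages, the mix gave 0.47 and the levels -0.46, and the library level was the same. Cxcl13 had 0.08 from the mix and -1.35 from the levels. Counts over all cells cannot tell fewer cells of a class from less RNA per cell, so the values that follow are within classes.

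**Figure D2:**
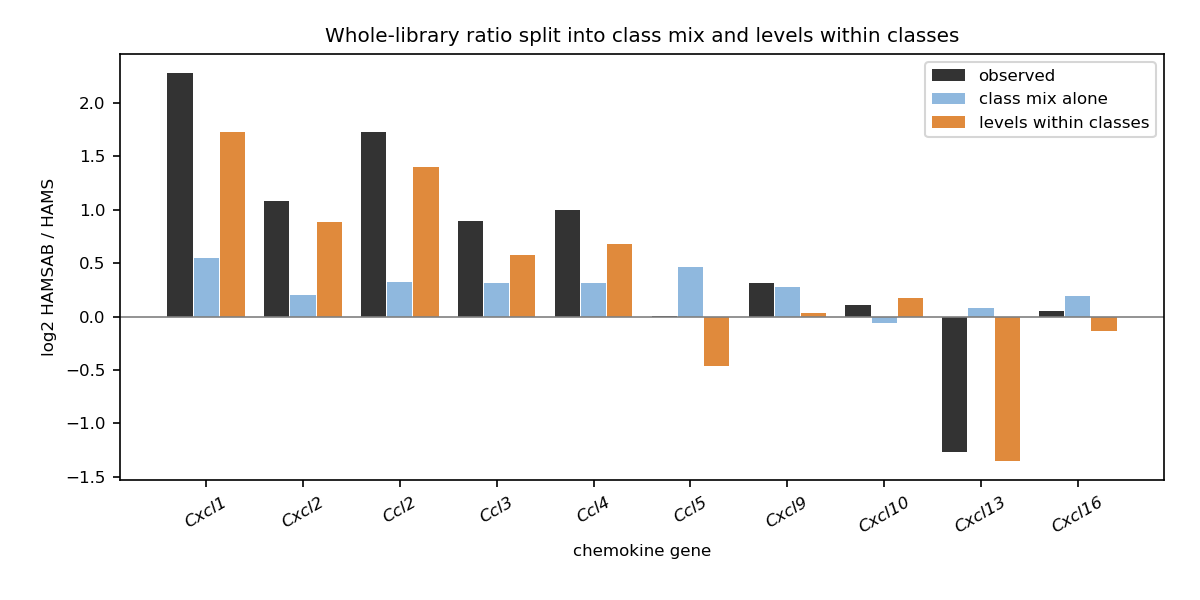
Log2 ratio of HAMSAB over HAMS for each chemokine over all cells (black), from the change in class mix alone with HAMS levels (blue), and from levels within classes at the HAMSAB mix (orange). For Ccl5 the blue bar (0.47) and the orange bar (-0.46) point in opposite directions, and for Cxcl9 the blue bar (0.28) is nearly as long as the black one.

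Cxcl1, a ligand of CXCR2, had its highest level in ductal-like cells, the epithelial cells of the pancreatic ducts. They held 45.0% of its HAMS and 68.4% of its HAMSAB UMIs, while being 1.79% and 4.0% of the cells. Their level was 555 CPM in HAMS (interval 405 to 743, 45 UMIs) and 2056 CPM in HAMSAB (1855 to 2273, 383 UMIs), a log2 ratio of 1.89 (1.44 to 2.37). The intervals of the libraries do not overlap. Cxcl1 was seen in 25.3% of HAMS and 52.4% of HAMSAB ductal-like cells, at medians of 955 and 844 UMIs per cell. Thinning to 500 UMIs left out 8 HAMS and 33 HAMSAB ductal-like cells with fewer. Among the 67 and 152 others the shares were 19.4% and 44.1%. In alpha-like cells, given for comparison, Cxcl1 was seen in 0.461% and 0.383% of cells at medians of 608.5 and 647 UMIs, and B-like cells had none.

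Macrophage-like cells were the next highest class for Cxcl1, at 173 CPM in HAMS and 511 in HAMSAB (1.56, 1.04 to 2.11), with 39 and 146 UMIs. They held 39% of its HAMS and 26.1% of its HAMSAB UMIs. Cluster 3 stayed at 17.3 and 16.1 CPM. Endothelial-like cells, at 54.8 and 425 CPM, rest on 2 cells in HAMS and 4 cells in HAMSAB. When only cells with at least 500 genes were clustered anew, the macrophage ratio was 3.80. Of the macrophage-like cells as first classed, 51 in HAMS and 55 in HAMSAB meet that limit. When cells were classed singly, by markers of their own, the ductal ratio was 2.83.

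Cxcl2, the other CXCR2 ligand measured, was first of all a macrophage transcript. Macrophage-like cells held 72.8% of its HAMS and 55.4% of its HAMSAB UMIs, at 2092 CPM (1907 to 2290) and 3067 CPM (2867 to 3277). Their log2 ratio was 0.55 (0.39 to 0.72), short of 2-fold. Ductal-like cells went from 555 to 1653 CPM (1.57, 1.12 to 2.06), and their share of all Cxcl2 UMIs from 6.96% to 19.5%. Cluster 3 went from 205 to 508 CPM (1.31, 0.99 to 1.63). The HAMSAB library was thus the higher in all 3 classes that hold most of the transcript. It was seen in 43.3% and 55.6% of macrophage-like cells (39.3% and 50.5% when thinned), and in 0 and 0.383% of alpha-like cells. The ductal ratio was 2.71 with cells classed by their own markers.

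Of the Cxcl1 and Cxcl2 UMIs together, Cxcl1 made up 50% in HAMS and 55.4% in HAMSAB ductal-like cells, but 7.65% and 14.3% in macrophage-like cells and 7.76% and 3.07% in cluster 3. Ductal-like cells lay apart from both in each library. The intervals of macrophage-like cells and cluster 3 overlapped in HAMS (5.49% to 10.3% and 3.61% to 14.2%) and did not in HAMSAB (12.2% to 16.6% and 1.54% to 5.43%). Within HAMSAB ductal-like cells Cxcl2 was seen in 63.9% of cells with Cxcl1 and in 20.5% of cells without it, at medians of 1000 and 638 UMIs, so depth differs in the same direction. In HAMS the shares were 31.6% (12.6% to 56.6%) and 17.9% (8.91% to 30.4%), with overlapping intervals. Transcripts of other neutrophil-attracting genes on the list, Cxcl3 and Cxcl5, did not reach 20 UMIs. Of the neutrophil markers S100a8, S100a9, Retnlg and Mmp8 had 0 UMIs and Csf3r had 13 and 10, and the receptor Cxcr2 had 20 and 17 UMIs in all cells.

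**Figure D3:**
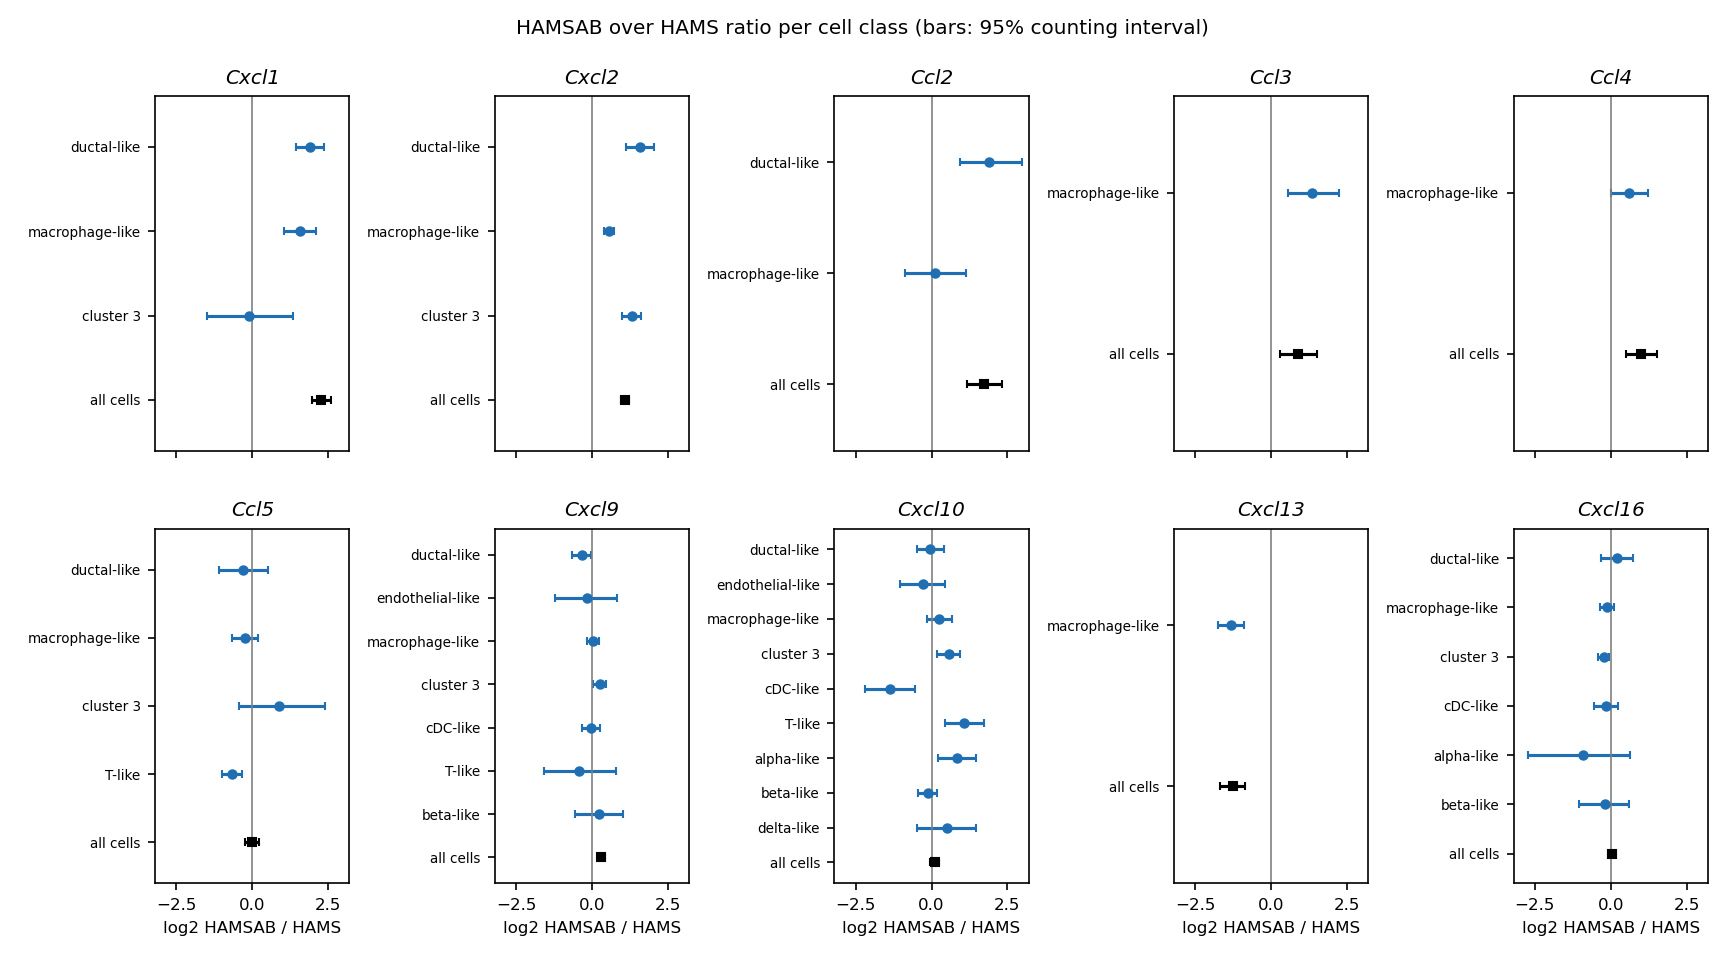
Log2 ratio of HAMSAB over HAMS for each chemokine (panels) in each class with at least 20 UMIs of that gene and 20 cells per library, with bars for the 95% counting interval and a black square for all cells. Cxcl1, Cxcl2 and Ccl2 lie to the right in ductal-like cells (1.89, 1.57 and 1.89), and Cxcl13 lies to the left in macrophage-like cells (-1.31).

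Ccl2, the main ligand of CCR2 on monocytes, followed Cxcl1 by class, but on few transcripts. Ductal-like cells had 10 UMIs in HAMS and 85 in HAMSAB, at 123 CPM (59.2 to 227) and 456 CPM (364 to 564), a log2 ratio of 1.89 (0.94 to 3.0). In HAMS 1 cell held 5 of the 10 UMIs, and without the cell with the most UMIs in each library the ratio was 2.74. With cells classed by their own markers it was 2.58. Macrophage-like cells stood at 71.1 and 76.9 CPM (0.11), on 16 and 22 UMIs. Ductal-like cells therefore held 30.3% of the HAMS and 67.5% of the HAMSAB UMIs of Ccl2, and macrophage-like cells 48.5% and 17.5%. No UMI of Ccl2 was found in cluster 3 or in B-like cells of either library.

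The ductal-like class as a whole had 7 members with at least 50 UMIs, of which 3 were past 2-fold higher in HAMSAB, beside 4.95% of all genes measured in that class, and 0 past 2-fold lower, beside 1.69%. The 4 others were Ccl5 (259 and 209 CPM), Cxcl9 (1530 and 1208), Cxcl10 (778 and 752) and Cxcl16 (543 and 623). All 8 ductal markers were detected in both libraries, with a summed level of 7602 and 7483 CPM. Macrophage markers in the same cells summed to 284 and 467 CPM, and the leukocyte gene Ptprc had 0 and 15 UMIs. Without the 2 HAMS and 9 HAMSAB cells that held a UMI of Ptprc, Lyz2, C1qa, C1qb or C1qc, the ratios were 1.92 for Cxcl1, 1.80 for Cxcl2 and 1.92 for Ccl2. That step does not cover other genes of immune cells, such as Cd74, an antigen presentation gene seen in 76% and 61.6% of all ductal-like cells, or Cxcr4, a receptor of leukocytes at 49.4 and 258 CPM, and their part in the result was not tested.

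Ccl3 and Ccl4, a neighbouring pair of genes on chromosome 11, were both highest in macrophage-like cells. Ccl3 went from 75.5 CPM (44.0 to 121, 17 UMIs) to 192 CPM (145 to 250, 55 UMIs), a log2 ratio of 1.35 (0.54 to 2.23). Ccl4 went from 160 to 245 CPM (0.61, 0.01 to 1.24). With at least 500 genes per cell these ratios were 2.55 and 1.22, and with cells thinned to 500 UMIs that of Ccl4 was 1.5. Macrophage-like cells held 50% of HAMS and 75.3% of HAMSAB Ccl3 UMIs, and T-like cells 29.4% and 11%. In cluster 3 Ccl4 had 0 UMIs in HAMS and 28 in HAMSAB, spread over 14 cells. With HAMS set to a floor of 3 counts this is 7.1-fold higher, and the lower interval bound of the log2 ratio was 2.44.

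Ccl5 was made by T-like and macrophage-like cells. T-like cells held 51.7% of its HAMS and 49.7% of its HAMSAB UMIs, macrophage-like cells 30.9% and 28.4%, and ductal-like cells 7.29% and 11.7%. By CPM, the intervals of macrophage-like and T-like cells overlapped in HAMS (395, 317 to 486, and 361, 305 to 424), while in HAMSAB macrophage-like cells were the higher (332, 269 to 406, against 227, 193 to 264). The T-like ratio was -0.67 (-1.0 to -0.34), with Ccl5 seen in 22.5% of HAMS and 12.4% of HAMSAB T-like cells at medians of 964.5 and 781.5 UMIs. Cells of 500 or more genes gave -1.28, and cells thinned to 500 UMIs gave -1.31. B-like cells showed Ccl5 in 0 and 0.310% of cells. T-like cells with Cd8a or Cd8b1 and no Cd4 had 352 CPM among 54 cells of HAMS and 150 CPM among 93 cells of HAMSAB, a ratio of -1.24 (-2.10 to -0.42). Those with Cd4 alone had 0 Ccl5 UMIs among 14 and 33 cells, and those with neither had 391 and 263 CPM. The HAMSAB level was the lower in both subsets that had the transcript.

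Macrophage-like cells had 9 members with at least 50 UMIs. Past 2-fold higher were 2 of them, Cxcl1 and Ccl3, beside 1.6% of all genes measured in that class, and past 2-fold lower 1 of them, Cxcl13, beside 1.46%. In T-like cells 1 of 2 members was past 2-fold higher, beside 2.36%, and 0 were past 2-fold lower, beside 0.85%. In cluster 3 it was 1 of 4 higher, beside 1.66%, and 0 lower, beside 0.886%.

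**Figure D4:**
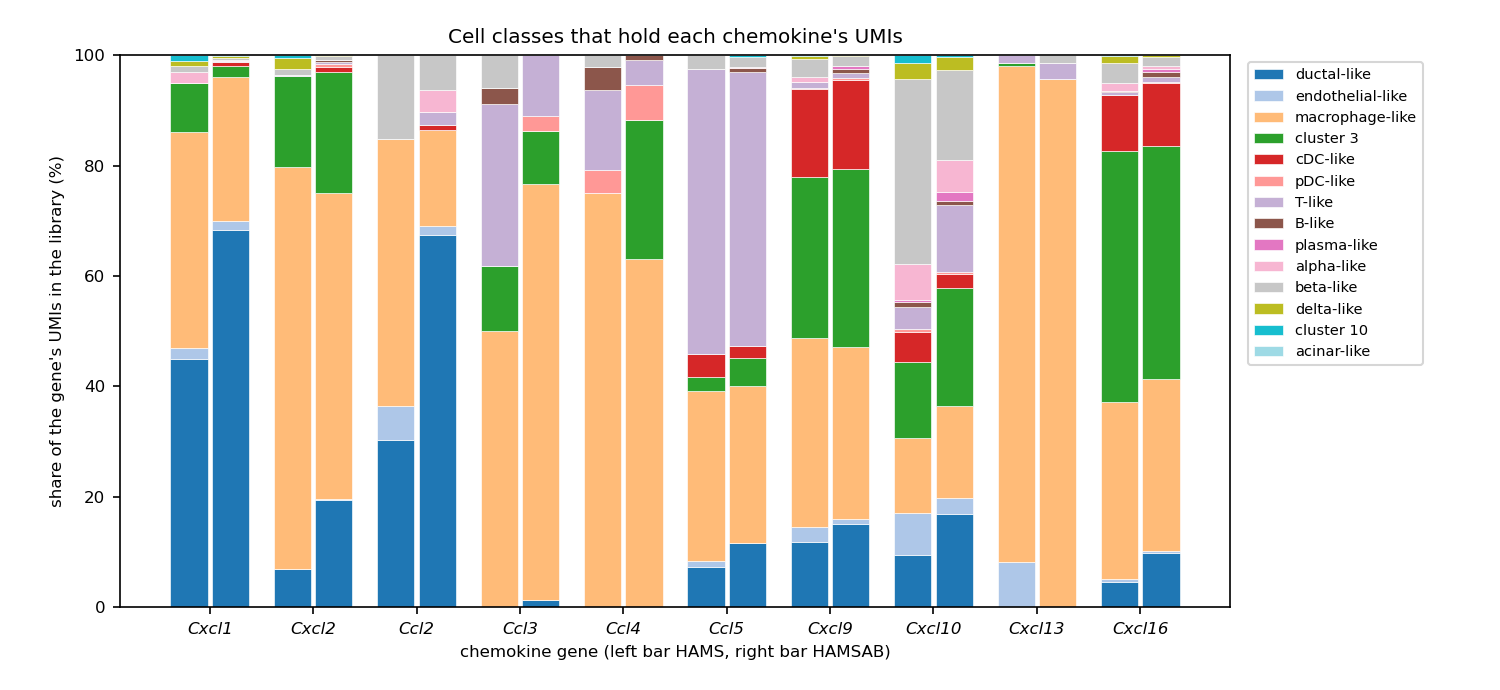
Share of each chemokine's UMIs (percent of the gene's UMIs in a library) that lies in each cell class, with the HAMS library as the left bar and the HAMSAB library as the right bar of each pair. The ductal-like part of Cxcl1 is 45.0% and 68.4%, the macrophage-like part of Cxcl13 is 89.9% and 95.8%, and Cxcl10 is spread over more classes than the other genes.

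Cxcl9, an interferon-gamma-induced ligand of CXCR3, was shared by myeloid and ductal-like cells at nearly the same levels in both libraries. Macrophage-like cells had 1586 CPM in HAMS (1425 to 1759) and 1630 in HAMSAB (1485 to 1784), a log2 ratio of 0.04. The dendritic, cDC-like cells had 1271 and 1244 CPM (-0.03), and ductal-like cells 1530 and 1208 CPM (-0.34, -0.66 to -0.01), which turned to 0.62 with cells classed by their own markers. In HAMS the intervals of these 3 classes overlap their neighbours, while in HAMSAB macrophage-like cells lie above the other two. Cluster 3 had 585 and 701 CPM (0.26, 0.05 to 0.47), and, by its number of cells, 29.3% and 32.1% of all Cxcl9 UMIs. Macrophage-like cells showed Cxcl9 in 48.4% and 49.4% of cells, against 1.15% and 0.383% of alpha-like cells and 0 and 0.619% of B-like cells.

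Cxcl10, the other CXCR3 ligand, had UMIs in all 13 classes with at least 20 cells per library, immune or not, though pDC-like cells had only 3 UMIs in each library. The highest level was that of endothelial-like cells, with 1369 CPM in HAMS (1016 to 1805, 50 UMIs) and 1134 in HAMSAB (726 to 1687, 24 UMIs). In HAMS 4 and in HAMSAB 2 of these cells held at least 50 percent of those UMIs. Ductal-like cells had 778 CPM (597 to 995) and 752 CPM (632 to 887). Their interval overlaps that of endothelial-like cells in HAMSAB and not in HAMS. Macrophage-like cells had 400 and 479 CPM. Beta-like cells had a lower level of 200 CPM (175 to 229) in HAMS and 183 (153 to 217) in HAMSAB, yet held 33.4% and 16.3% of all Cxcl10 UMIs through their number. They showed Cxcl10 in 7.78% and 8.04% of cells at medians of 675 and 809.5 UMIs, against 2.59% and 0.929% of B-like cells at medians of 902 and 769.5 UMIs. Both beta-like clusters carried it, cluster 4 at 160 and 140 CPM and cluster 8 at 228 and 193 CPM.

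The diet ratio of Cxcl10 went different ways by class. T-like cells went from 65.4 to 137 CPM (1.06, 0.44 to 1.73), alpha-like cells from 138 to 247 (0.84, 0.22 to 1.47) and cluster 3 from 174 to 259 (0.57, 0.20 to 0.95). The cDC-like cells went from 276 to 108 CPM (-1.36, -2.21 to -0.54), on 36 and 21 UMIs. In the cDC-like class 1 of 3 members was thus past 2-fold lower, beside 2.11% of genes, and 0 higher, beside 1.71%. With cells classed by their own markers the cDC-like ratio turned to 0.40. Cells of 500 or more genes gave 0.39 in T-like, 2.03 in alpha-like, 1.10 in macrophage-like and 0.46 in beta-like cells, the last of which was -0.13 before. In beta-like cells 0 of 3 members were past 2-fold higher, beside 1.41%, or lower, beside 1.86%.

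The share of Cxcl9 among the UMIs of Cxcl9 and Cxcl10 differed widely between classes, and was compared between classes, not as a level of one gene against another. It was 82.2% in HAMS and 92% in HAMSAB cDC-like cells, 79.9% and 77.3% in macrophage-like cells, 77.0% and 73.0% in cluster 3 and 66.3% and 61.6% in ductal-like cells. Endothelial-like cells had 35.1% and 36.8%, T-like cells 30.8% and 13.8%, alpha-like cells 17.3% and 2.04% and beta-like cells 13.0% and 16.1%. T-like cells thus lay nearer to alpha-like and beta-like cells than to cDC-like, macrophage-like or cluster 3 cells, and in HAMSAB their interval (8.09% to 21.4%) overlapped that of beta-like cells (10.8% to 22.8%). The intervals of cDC-like (76.2% to 87.2%) and beta-like cells (9.11% to 17.8%) in HAMS do not overlap. In ductal-like cells Cxcl10 was seen in 57.7% of HAMS and 69.0% of HAMSAB cells with Cxcl9, and in 20.4% and 17.5% of cells without it. Depth differs in the same direction, with a median of 966 UMIs against 891 in HAMS and 1009 against 782 in HAMSAB.

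**Figure D5:**
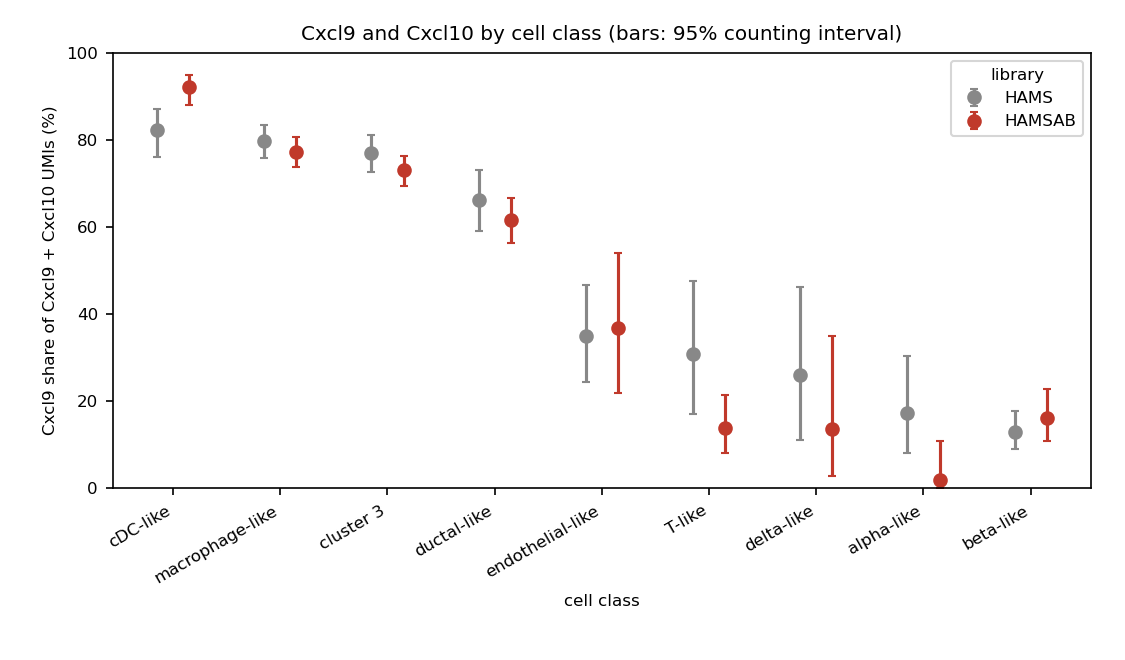
Share of Cxcl9 among the UMIs of Cxcl9 and Cxcl10 (percent, y axis) in 9 cell classes (x axis) of the HAMS library (grey) and the HAMSAB library (red), with bars for the 95% counting interval. Dendritic and macrophage-like cells lie at 77.3% to 92%, and beta-like cells at 13.0% and 16.1%.

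Cxcl13, which guides B cells through CXCR5, was confined in these libraries mostly to a small number of macrophage-like cells. They held 89.9% of its HAMS and 95.8% of its HAMSAB UMIs. Their level was 591 CPM in HAMS (495 to 700, 133 UMIs) and 238 CPM in HAMSAB (185 to 301, 68 UMIs), a log2 ratio of -1.31 (-1.76 to -0.88). It was seen in 28 of 289 HAMS and 15 of 399 HAMSAB macrophage-like cells, 9.69% and 3.76%, and 0 alpha-like, B-like or ductal-like cells had a UMI. In each library 5 and 4 cells held at least 50 percent of the UMIs, and the top cell 12.8% and 23.5%. Without that cell in each library the ratio was -1.5. Among cells of 500 or more genes it was -2.56, and -3.14 over all cells of that kind. The 12 UMIs of endothelial-like cells in HAMS came from 1 cell. B-like cells, which carry 58.3% of the UMIs of its receptor Cxcr5, made up 4.61% of the HAMS library and 14% of the HAMSAB one.

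Cxcl16, a membrane-bound chemokine that is shed by the protease ADAM10, was a gene of cluster 3, macrophage-like and cDC-like cells, which together held most of its UMIs. Cluster 3 held 45.4% and 42.2%, macrophage-like cells 32.1% and 31.1%, and cDC-like cells 10.2% and 11.4%. Macrophage-like cells had the highest level, 1399 CPM in HAMS (1249 to 1562) and 1280 in HAMSAB (1152 to 1418), a log2 ratio of -0.13. Cluster 3 followed with 853 and 726 CPM (-0.23, -0.42 to -0.05), cDC-like cells with 766 and 686 and ductal-like cells with 543 and 623. The intervals of cluster 3 and cDC-like cells overlap in both libraries. When only cells of 500 or more genes were clustered anew, the ratio in cluster 3 was 0.08. Of cluster 3 as first drawn, 73 HAMS and 108 HAMSAB cells meet that limit. Cxcl16 was seen in 59.2% and 57.1% of macrophage-like cells, against 2.30% and 1.53% of alpha-like cells. Adam10 itself stood at 706 and 587 CPM in macrophage-like cells and at 332 and 356 CPM in cluster 3.

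The matching receptors were read from the same cells. Ccr1, which binds CCL3 and CCL5, had 63.2% of its UMIs in cluster 3, at 182 and 309 CPM (0.76, 0.41 to 1.13). In macrophage-like cells it stood at 204 and 210 CPM. Cxcr6, the receptor for CXCL16, had 97.5% of its UMIs in T-like cells, at 67.9 and 66.9 CPM. Ccr2 had 36.4% of its 99 UMIs in T-like cells, at 36.4 and 28.7 CPM. Macrophage-like cells stood at 57.7 and 73.4 CPM for it, on 13 and 21 UMIs. Cxcr3 had 6 UMIs in HAMS and 24 in HAMSAB, 80.0% of them in T-like cells, under the 50 UMIs set for a named receptor. Of the 23 receptors, 6 had at least 50 UMIs in macrophage-like cells, with 0 past 2-fold in either direction and a median log2 ratio of 0.06, beside 0.01 for all genes. Cluster 3 also had 6, with 0 past 2-fold and a median of 0.39 beside 0.04. T-like cells had 4, with a median of 0.16 beside 0.02, of which Ccr7, a receptor for lymph node homing, was past 2-fold higher (65.4 and 165 CPM), beside 2.36% of all genes.

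Genes that switch chemokine transcription on or feed back on it were read in the same classes. Nfkbia, the inhibitor that NF-kB itself induces, went from 1528 to 2581 CPM in macrophage-like cells (0.76, 0.57 to 0.95), from 1165 to 1928 in cluster 3 (0.73, 0.59 to 0.87) and from 1444 to 1900 in ductal-like cells (0.40, 0.09 to 0.71). It was also higher over all cells (0.64, 0.56 to 0.71) and in T-like (0.80), delta-like (0.72) and alpha-like cells (0.61). Its interval included 0 in other classes, such as beta-like (0.14), B-like (0.19) and cDC-like cells (0.20). Nfkbiz, a nuclear cofactor of NF-kB, went from 679 to 1213 CPM in ductal-like cells (0.84, 0.41 to 1.29). Il1b, an inflammatory cytokine, went from 2039 to 2801 CPM in macrophage-like cells (0.46, 0.29 to 0.63). The AP-1 gene Fos went the other way there, from 2279 to 1147 CPM (-0.99, -1.19 to -0.79), just short of 2-fold. Fos was also lower over all cells (-1.47, -1.53 to -1.42). Its interval lay below 0 in cluster 3 and in T-like, beta-like, alpha-like, delta-like and ductal-like cells too. In B-like and cDC-like cells the interval of Fos included 0. Of the 17 genes on this list, 14 were measured in macrophage-like cells, with 1 past 2-fold higher, 1 past 2-fold lower (beside 1.6% and 1.46% of all genes) and a median of 0.35, beside 0.01 for all genes. Ductal-like cells had 7 measured, 1 past 2-fold higher and 0 lower (beside 4.95% and 1.69%), and a median of 0.42, beside 0.06. Cluster 3 had 14 measured, 7 above and 7 below 0, with 1 past 2-fold each way (beside 1.66% and 0.886%) and a median of -0.07, beside 0.04. T-like cells had 11 measured and a median of 0.28, beside 0.02, with 1 past 2-fold each way (beside 2.36% and 0.85%). In cDC-like cells the median of 8 was -0.31, beside 0.00, and in beta-like cells that of 13 was -0.19, beside 0.02, with 0 past 2-fold in either class. Of the 14 interferon genes, 7 were measured in macrophage-like cells, with 0 past 2-fold and a median of 0.01.

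The authors' 8 deposited tables of their own diet comparisons list 0 of the 10 members. They are short, from 7 genes (pdc) to 115 genes (Beta) out of the 32285 measured, and none is labelled for ductal or endothelial cells. Absence from them therefore says little about the members. In the authors' deposited table labelled mf Nfkbia has a log2 fold change of 0.51 (adjusted p = 0.0256), and in the authors' deposited table labelled cdc 0.60 (adjusted p = 1.1e-08). In the authors' deposited table labelled tcells it has 0.61 (adjusted p = 1). The authors' deposited table labelled mf also lists Il1b (0.37) and Fos (-0.86), both with adjusted p-values far above that of Nfkbia there. Those p-values were computed by the authors and are not tests across mice.

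Likeness to other genes was read as Pearson's r of log2(CPM + 10) over 28 profiles, the 14 clusters by library that had at least 20 cells in each. Points of 1 library share its depth and free RNA, so r is a description. For Cxcl1 the closest genes were C3, the central complement component (0.92), Pdpn (0.90) and Ier3 (0.89), and for Ccl2 C3 (0.92), Ier3 (0.90) and Pdpn (0.88). For Cxcl2 they were Acod1, which makes itaconate in activated macrophages (0.87), the complement gene Cfb (0.86) and Il1rn, the interleukin-1 receptor antagonist (0.84). Ccl3 was closest to the complement receptor gene C5ar1 (0.82) and Ccl4 to Lair1 (0.90). For Cxcl9 they were Nfkbia (0.92), Pfkfb3 (0.87) and Ifi204 (0.87), and for Cxcl16 Tnfaip2 (0.93) and again Nfkbia (0.88). Cxcl13 had no gene above 0.78, the value of Tgfbi, Plxnd1 and C1qb. Ccl5 was closest to AW112010 (0.84) and Cxcl10 to Bach1 (0.84).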

How the data were processed

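Pancreatic islet cells of NOD mice were profiled with a Chromium 3' kit, per the labels' protocols, in 1 library for each of 2 diets. The deposited values are raw UMI counts per gene and barcode, written by Cell Ranger 5.0.0 per the file headers. The submitters' processing notes name Seurat and the builds mm10 and GRCm38. How cells were called, which annotation was used and the strand setting: not given in the sources used here. A further 8 tables of the authors hold, per gene, their log2 fold change between diets with its adjusted p-value, by an unstated method.

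Barcodes were kept from 200 genes up, with mitochondrial UMIs of 20% or less (HAMS 4185 of 4352, HAMSAB 4628 of 5022). The libraries held 3599756 and 4254040 UMIs. Cells were clustered together with scanpy 1.11.5 (2000 variable genes without chemokine genes, 30 components, 15 neighbours, Leiden resolution 1 with igraph 0.11.9) on counts scaled to 10000 per cell and log-transformed. A cluster got the class whose markers scored highest if at least 3 were detected in 5% of its cells and its 10 leading genes held no more markers of another class. Scrublet marked 0.0454% of cells, so none were removed.

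UMIs were summed per library and class. CPM carries an exact Poisson interval, a cell share a Clopper-Pearson interval (exact) and a log2 ratio an exact conditional binomial interval (scipy 1.17.1), all at 95%. The ratio intervals were checked on simulated Poisson counts only. Such counts cannot show how the intervals hold where a few cells carry much of a gene's UMIs. Ratios need 20 cells per library and 20 UMIs. Past the fold means 2-fold with at least 50 UMIs, the same rule over all genes of the class giving the background. Nothing was tested between diets, because cells of 1 library are not replicates. The labels do not give a number of mice.

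All 10 members are named. Likeness names up to 3 genes per member by r. Receptors and up to 4 genes of a list with the highest CPM in a leading class are named from 50 UMIs on, some of these only, and receptors below that are said to be so. The members, lists and markers were chosen with earlier results of these data known. Alternatives changed the gene and mitochondrial limits, resolution, clustering genes, class assignment, weighting, depth per cell, denominator, doublets and the UMI minimum. Those with other gene or mitochondrial limits, resolution or clustering genes clustered the cells anew. Each new cluster took the main class most common among its cells. Thinning used only cells with at least 500 UMIs. Acinar-like cells (0 and 9) were left out of class ratios. Some genes of the receptor and interferon lists are not reported here.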

Additional observations from a re-analysis of the deposited data

Results flagged for a closer look

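For 2 genes the HAMSAB over HAMS ratio pointed in opposite directions in a pair of classes, with neither counting interval reaching 0. Cxcl9 had a log2 ratio of 0.26 in cluster 3 and of -0.34 in ductal-like cells. Cxcl10 had 1.06 in T-like cells and -1.36 in cDC-like cells. With 1 library per diet, neither difference was tested. When cells were classed singly, by markers of their own, the ductal-like ratio of Cxcl9 was 0.62 and the cDC-like ratio of Cxcl10 was 0.40.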

How the results depend on the processing

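Of 493 values recomputed for 52 results, 437 stayed within the spread set by counting error, 53 moved beyond it, and 3 whose reported interval excluded 0 changed sign. No value moved beyond it under the other mitochondrial limit, Leiden resolution 2, chemokine genes kept in clustering, the other denominator, removal of marked doublets or the 20 UMI minimum for counts of calls. The removal of doublets took out only 4 of 8813 cells, so it could hardly move a value and does not show how doublets bear on the results. The cause of the moves was not tested. The higher gene minimum keeps 29.0% of HAMS and 29.7% of HAMSAB cells and draws the classes anew from them.

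These 3 log2 ratios were 0.08 for Cxcl16 in cluster 3 with at least 500 genes per cell, and 0.62 for Cxcl9 in ductal-like and 0.40 for Cxcl10 in cDC-like cells with cells classed by their own markers. Ratios whose reported interval included 0 also changed sign in places, such as Cxcl10 in beta-like and Cxcl9 in macrophage-like cells with at least 500 genes, and Cxcl10 over all cells with cells weighted equally.

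With at least 500 genes per cell the log2 ratios over all cells were 2.69 for Cxcl1, 1.25 for Cxcl2, 0.50 for Ccl4, -0.66 for Ccl5, 0.16 for Cxcl9, 0.49 for Cxcl10 and -3.14 for Cxcl13. Within macrophage-like cells they were 0.93 for Cxcl2, 2.55 for Ccl3, -0.39 for Cxcl9 and -2.56 for Cxcl13, with -1.28 for Ccl5 in T-like and 0.46 for Cxcl10 in beta-like cells. The leading class's share of UMIs (mean of both libraries) was then 80.8% for Cxcl1 and 78.2% for Ccl2 (ductal-like), 44.4% for Cxcl2, 21.5% for Cxcl9 and 79.1% for Cxcl13 (macrophage-like), 43.7% for Ccl5 (T-like) and 29.1% for Cxcl16 (cluster 3).

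With cells thinned to 500 UMIs the ratios were 1.5 for Ccl4 in macrophage-like cells and 2.18 over all cells, and -1.31 for Ccl5 in T-like cells and -0.25 over all cells, with shares of 43.2% for Ccl5, 47.8% for Cxcl1 and 49.5% for Cxcl16. With cells weighted equally the ratios over all cells were 0.42 for Ccl5, -0.06 for Cxcl10 and 0.17 for Cxcl16, that of Cxcl10 in beta-like cells -0.49, and the shares 47.9% for Cxcl1, 67.4% for Cxcl2, 37.2% for Cxcl9 and 48.1% for Cxcl16. With cells classed by their own markers the ductal-like ratio of Cxcl1 was 2.83, and the shares were 44.0% for Ccl5, 20.3% for Cxcl10, 57.5% for Cxcl2 and 26.5% for Cxcl9.

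Leaving out the cell with the most UMIs, and ductal-like cells with a UMI of Ptprc, Lyz2 or the C1q genes, were chosen after seeing the data. No paired analysis was possible because each diet has 1 library and no test was made.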

Other observations

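Chemokine genes outside the 10 were sparse, and only 3 of the 26 on the list of other chemokines had at least 50 UMIs. Xcl1, a lymphotactin made by activated T cells, had 88.5% of its UMIs in T-like cells, at 92.1 and 95.6 CPM. Ccl22, a dendritic cell and macrophage chemokine that acts on CCR4, had 44.0% of its 75 UMIs in cluster 3, at 13.4 and 38.0 CPM. The cDC-like cells stood higher for Ccl22, at 30.6 and 102 CPM, on 4 and 20 UMIs. Ccl25 had 30% of its 70 UMIs in B-like cells, at 27.2 and 22.9 CPM.

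Ccr7, the receptor that guides dendritic and T cells to lymph nodes, had 48.3% of its UMIs in cluster 3, at 301 and 376 CPM. Its level in cDC-like cells was 398 and 420 CPM, and it went from 65.4 to 165 CPM in T-like cells (log2 ratio 1.34, 0.72 to 2.0). Ccr9 had 48.9% of its UMIs in pDC-like cells, at 2113 CPM in HAMS and 3136 in HAMSAB. Ifng, the cytokine that induces Cxcl9, had 92.3% of its 39 UMIs in T-like cells, at 19.4 and 38.2 CPM.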
